A study of Mus musculus with 5 samples.

Results

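The collagen chains of the mouse were examined in pancreas at postnatal day 1 (P1). The members were every probe set whose 1 gene symbol in the platform annotation has the form Col, a number, the letter a and a number. The rule found 46 probe sets for 44 genes, out of 28853 probe sets and 19938 genes with a single symbol on the array, and used no measured value. Col6a5 and Col6a6 have 2 probe sets each, which were averaged. The genes were grouped as 7 fibrillar chains, 9 basement membrane chains, 8 cartilage chains and 20 other chains. Col21a1 was not analysed here.

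Whole pancreata of 2 control mice, labelled as not recombinated, and 3 Pdx1cKO mice were hybridised to 5 Mouse Gene 1.0 ST arrays. The Pdx1cKO mice carried Elastase-Cre and homozygous Pdx1loxP, so that Pdx1, a homeobox factor needed to form the pancreas, was inactivated in exocrine cells only. The knockout line came from breeding Pdx1loxP with Elastase-Cre mice, and which of these alleles each control mouse carried is not stated in the labels or methods. The RNA is that of the whole organ, most collagen is made by cells in which this Cre is not active, and fewer cells of a type and less RNA per cell cannot be told apart in such a sample.

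Collagens are proteins of the extracellular matrix built from 3 chains wound into a triple helix. Fibrillar collagens, types I, III and V among them, form the fibrils that carry tension in connective tissue and are made mainly by fibroblasts and other mesenchymal cells. Type IV collagen forms the network of the basement membrane under epithelium and around vessels, type VI forms beaded microfibrils next to cells, and types IX, XII and XIV sit on the surface of fibrils. Chains are hydroxylated and folded in the endoplasmic reticulum, secreted, trimmed by proteases and then crosslinked.

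No collagen chain passed limma over all genes. Of the 44 chains, 0 were called lower and 0 higher at the threshold of 0.05 after adjustment, and the share called over all genes was 0 in either direction. The median log2 fold change (Pdx1cKO minus control) over the chains was 0.05, with a range of -0.17 to 0.49, against -0.00 over all genes. It lay above zero for 28 chains, below zero for 13 and within 0.005 of zero for 3. All 3 Pdx1cKO mice lay above both controls for 10 chains (22.7%), as they did for 12.0% of all genes, and below both for 1 chain (2.27%), as for 11.7% of all genes. These counts depended on the scaling: after median scaling 7 chains lay above and 9 below (9.53% and 42.6% of all genes), and after quantile normalization 9 above and 7 below (18.1% and 22.4% of all genes). Each chain that was added below had a value tied between a control and a Pdx1cKO mouse as deposited, and Col13a1 lay below in every case. At an unadjusted limma p under 0.05 there were 6 chains higher (13.6%) and 1 lower (2.27%), beside 5.29% and 5.04% of all genes. The 6 were Col26a1, Col8a2, Col18a1, Col6a6, Col5a2 and Col6a3, and the 1 was Col13a1.

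**Figure D1:**
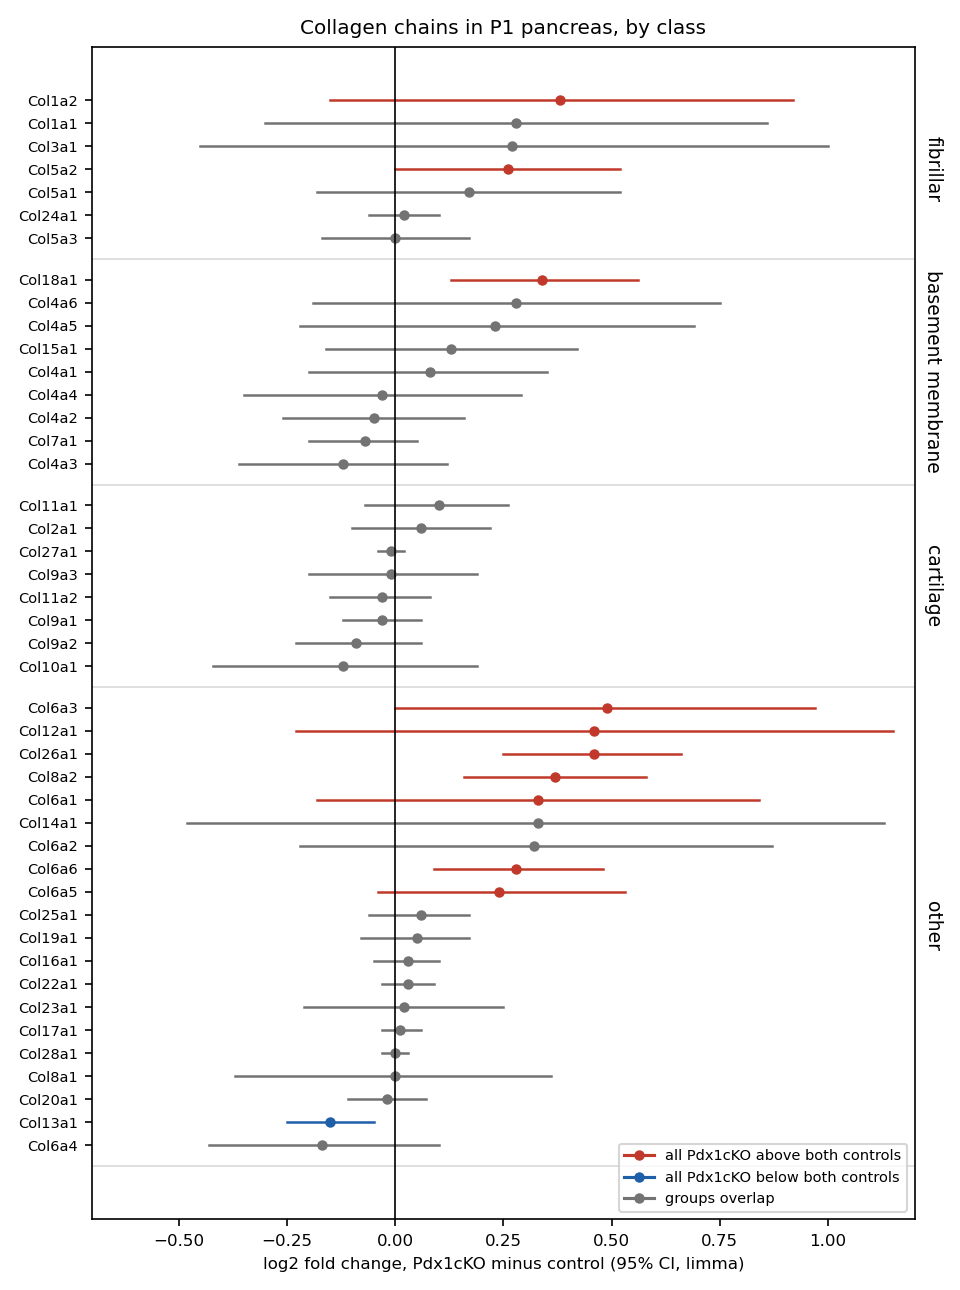
Log2 fold change (Pdx1cKO minus control) of each of the 44 collagen chains on the x axis, with its 95% confidence interval from limma, by class and in order of size. The intervals of Col18a1, Col26a1, Col8a2 and Col6a6 stay clear above zero, that of Col13a1 stays below it, and the cartilage chains lie between -0.12 and 0.10.

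The control arrays differed from each other in these genes, and this touches every comparison that follows. Control 2 was the lowest of the 5 arrays for 24 of the 44 chains (54.5%), against 25.9% of all genes, and Pdx1cKO 3 was the highest for 16 chains (36.4%), against 18% of all genes. The median over the chains was 0.11 without control 1 and 0.00 without control 2. Control 2 also held stomach transcripts: the summed intensity of 10 stomach genes was 12109 there, 494 in control 1 and 642 to 720 in the Pdx1cKO mice. In the Pdx1cKO arrays the sum of 9 of 10 liver genes was 18626 to 46439 against 6048 and 7567 in the controls, that of 8 granulocyte genes 1259 to 3482 against 418 and 429, and that of 6 skeletal muscle genes 887 to 6503 against 473 and 551. The pancreas markers were present in all arrays, with sums over 6 of 8 acinar genes of 42150 and 31684 for control mice and 8676 to 13891 for Pdx1cKO mice, and over 5 of 6 islet genes of 6555 and 6456 against 3045 to 4026. Pdx1 itself read 67.9 and 112.7 in control mice and 48.4, 48.4 and 42.9 in Pdx1cKO (log2 fold change -0.91, limma adjusted p = 0.385), and islet cells keep it. Whether any of these arrays' differences in tissue content bear on the collagen values was not tested.

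The start regions of 4 chains are shown as examples of the patterns described next. For Col1a2 and Col3a1, fibrillar chains, the size of the difference between groups depended on control 2. For Col8a2 and Col18a1 the log2 fold change moved little without control 1 (0.40 and 0.33) or control 2 (0.34 and 0.36). The Pdx1cKO mice lay above both controls in Col1a2, Col8a2 and Col18a1. Each region is the 250 bases before the RefSeq transcription start in GRCm38.p6, read 5′ to 3′ on the gene's strand, and holds no other annotated gene. Capitals mark 3 short motifs on either strand. They are the CCAAT box, spelled by its name, the TATA box, here the letters TATAAA, and the GC box, here the letters GGGCGG. A match on the opposite strand is printed as its reverse complement. Col1a2 lies at chr6:4505368-4505617 on the plus strand, Col3a1 at chr1:45311288-45311537 on the plus strand, Col8a2 at chr4:126286544-126286793 on the plus strand, and Col18a1 at chr10:77166531-77166780 on the minus strand.
Col1a2: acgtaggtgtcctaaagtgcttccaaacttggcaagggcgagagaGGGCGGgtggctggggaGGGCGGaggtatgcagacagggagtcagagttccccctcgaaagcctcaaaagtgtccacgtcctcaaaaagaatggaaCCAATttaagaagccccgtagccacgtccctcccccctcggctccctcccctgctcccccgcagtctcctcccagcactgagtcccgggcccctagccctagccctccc
Col3a1: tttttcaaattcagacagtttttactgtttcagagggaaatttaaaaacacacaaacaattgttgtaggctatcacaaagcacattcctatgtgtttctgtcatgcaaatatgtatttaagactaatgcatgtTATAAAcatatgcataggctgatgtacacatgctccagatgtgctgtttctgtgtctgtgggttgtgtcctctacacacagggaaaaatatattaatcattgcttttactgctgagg
Col8a2: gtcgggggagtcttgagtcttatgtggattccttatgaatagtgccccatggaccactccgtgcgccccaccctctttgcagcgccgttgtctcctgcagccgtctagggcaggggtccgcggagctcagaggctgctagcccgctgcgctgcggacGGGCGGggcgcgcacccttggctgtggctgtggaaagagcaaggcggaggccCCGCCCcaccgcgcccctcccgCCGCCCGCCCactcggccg
Col18a1: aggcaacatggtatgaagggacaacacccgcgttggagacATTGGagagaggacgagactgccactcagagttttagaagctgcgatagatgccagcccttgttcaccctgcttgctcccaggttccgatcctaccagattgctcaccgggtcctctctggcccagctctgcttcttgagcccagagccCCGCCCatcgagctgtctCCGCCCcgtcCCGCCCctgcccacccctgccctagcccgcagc
The Col1a2 window held 2 GC boxes, 205 and 188 bases before the start, and a CCAAT box at 109. The Col3a1 window was 35.2% G and C and held a TATAAA at 117 bases before the start and no GC box, whereas the other windows were 62% to 70% G and C. The Col8a2 window held 4 GC boxes, of which the 2 nearest the start overlap, and the Col18a1 window held 3 GC boxes and an opposite-strand CCAAT. A window was found for 35 of the 44 genes, 38 windows in all. GC boxes were present in 22 of the 38 (57.9%) and in 32.7% of 32851 mouse windows, CCAAT boxes in 13 (34.2%) and in 33.8%, and TATAAA in 5 (13.2%) and in 12.4%. These are matches of letters and show no binding.

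The fibrillar chains had a median log2 fold change of 0.26, and this value rested on control 2. Col1a1, the major chain of type I collagen, read 4372 and 3050 in control mice and 4618, 3947 and 4806 in Pdx1cKO. The groups overlapped, since control 1 lay above Pdx1cKO 2, and the log2 fold change was 0.28 ± 0.202 (SE, limma adjusted p = 0.515). Col1a2, the partner chain of Col1a1, read 2645 and 1905 against 2955, 2650 and 3215. Its 3 Pdx1cKO values lay above both controls, but Pdx1cKO 2 lay only just above control 1, and the log2 fold change was 0.38 ± 0.185 (SE, limma adjusted p = 0.515). Col3a1, the single chain of type III collagen, read 2422 and 1457 against 2285, 2141 and 2380. Here control 1 was the highest of the 5 arrays and control 2 the lowest, and the log2 fold change was 0.27 ± 0.252 (SE, limma adjusted p = 0.59). The 95% confidence intervals of these 3 chains ran from -0.30 to 0.86, from -0.15 to 0.92 and from -0.45 to 1.00.

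Leaving out a control moved all 3. Without control 1 the log2 fold changes of Col1a1, Col1a2 and Col3a1 were 0.54, 0.62 and 0.64, and without control 2 they were 0.02, 0.15 and -0.10. The type V chains, which regulate the width of type I fibrils, were less alike. Col5a1 read 267.1 and 221.1 in control mice and 288, 249 and 286.3 in Pdx1cKO, overlapping, with a log2 fold change of 0.17. Col5a2 read 287.3 and 278.8 against 321.7, 321.7 and 376.2. Its controls were close together and lay below every Pdx1cKO mouse, so that the log2 fold change of 0.26 (95% confidence interval 0.00 to 0.52, limma unadjusted p = 0.0484, adjusted p = 0.478) was 0.28 without control 1 and 0.24 without control 2. Col5a2 and Col3a1 are next to each other in the RefSeq gene table with no protein-coding gene between them, and had like log2 fold changes of 0.26 and 0.27, but differed in where control 1 lay. Col5a3 and Col24a1 had log2 fold changes of 0.00 and 0.02, and in Col24a1 4 of the 5 arrays held the same value, 52.8. For the class as a whole, control 2 was the lowest array in 6 of 7 chains, and 2 chains (28.6%) lay above both controls, beside 12.0% of all genes. The class median was 0.31 without control 1 and 0.02 without control 2.

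**Figure D2:**
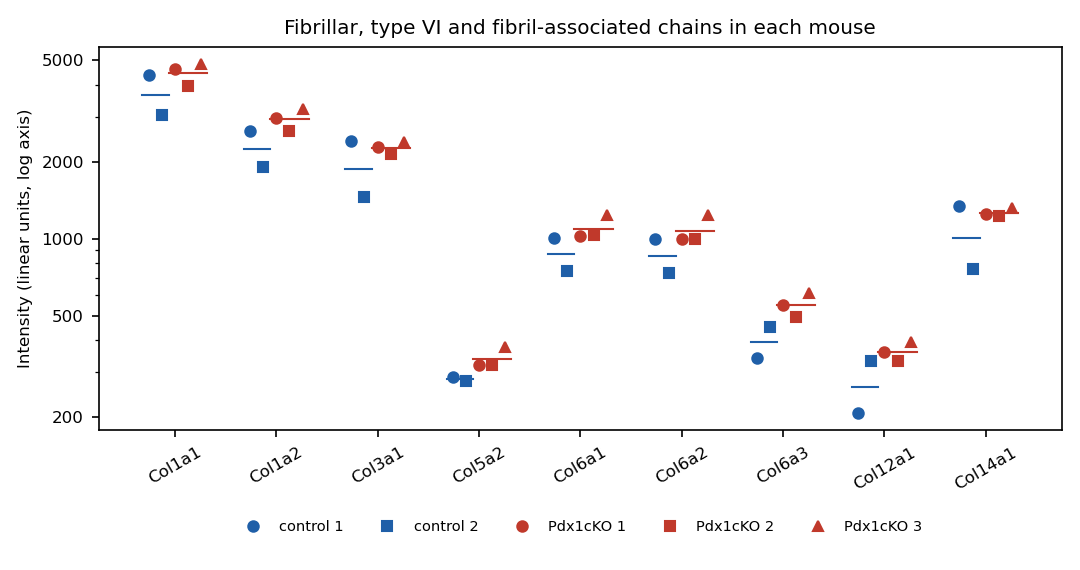
Intensity on a log axis (y) of fibrillar, type VI and fibril-associated chains (x) in each mouse, with symbols for mice and a short line at each group's geometric mean. Control 2 lies far below the other 4 arrays in Col1a1, Col1a2, Col3a1, Col6a1, Col6a2 and Col14a1, at 757.9 against 1232 to 1345 in Col14a1, while in Col6a3 and Col12a1 control 1 is the lowest.

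The same separation of the controls was seen in markers of mesenchyme and vessels. The 10 fibroblast and mesenchyme genes had a median log2 fold change of 0.20, which was 0.32 without control 1 and 0.02 without control 2, and control 2 was the lowest array in 8 of the 10. Their summed intensity was 8402 and 6461 in control mice and 8185 to 8676 in Pdx1cKO. The 8 endothelium genes had a median of 0.40 (0.54 and 0.16 without control 1 and control 2), with sums of 2132 and 1620 against 2246 to 2654, and control 2 was the lowest in all 8. The 8 smooth muscle and pericyte genes did not follow this order, with sums of 5600 and 8825 in control mice and 4955, 7229 and 8465 in Pdx1cKO. The part of these cell markers in the collagen values was not tested.

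The basement membrane chains had a median log2 fold change of 0.08. Col4a1 and Col4a2, which together make the common form of type IV collagen from a shared promoter region, read 233 and 268.4 against 255.2, 252 and 284.4, and 217.5 and 214.8 against 193, 210.5 and 224.1. Both overlapped between groups, with log2 fold changes of 0.08 (95% confidence interval -0.20 to 0.35) and -0.05 (-0.26 to 0.16). Unlike the type I chains, Col4a1 was higher in control 2 than in control 1.

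The minor type IV chains form more specialised networks, that of kidney and lung among them. Col4a3 read 59.6 and 50.3 in the controls and 50.3 in every Pdx1cKO mouse, and its neighbour Col4a4 read 60.1 and 47.9 against 52.1, 52.7 and 53. In Col4a4 the controls lay on either side of all Pdx1cKO mice, and the log2 fold change of -0.03 was 0.14 without control 1 and -0.19 without control 2. The other neighbouring pair, Col4a5 and Col4a6, lies on the X chromosome. Col4a5 read 94.2 and 68.1 in control mice and 94.1, 94.1 and 94.6 in Pdx1cKO, and Col4a6 read 72.5 and 53.2 against 72.5, 72.5 and 81.5. In both, control 1 was at the level of the Pdx1cKO mice and control 2 alone was low, with log2 fold changes of 0.23 and 0.28 and limma adjusted p of 0.515 each. The Xist level, a marker of an inactive X chromosome, was 622 and 348.7 in Pdx1cKO 1 and 2 and 33.5 to 53.4 in the other 3 arrays, and the Y-linked Eif2s3y read 22.4 and 24.9 in Pdx1cKO 1 and 2, 114 in Pdx1cKO 3 and 106.8 and 151 in the controls. Both controls and Pdx1cKO 3 thus carried the male pattern and Pdx1cKO 1 and 2 the female pattern, and the part of sex in the Col4a5 and Col4a6 values was not tested.

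Col18a1, a basement membrane collagen of vessels and epithelium whose end fragment is endostatin, was the exception in its class. It read 200.8 and 205.5 in control mice and 246.5, 281.5 and 246.5 in Pdx1cKO. The controls were nearly equal and the groups did not overlap, with a log2 fold change of 0.34 ± 0.0757 (SE, limma unadjusted p = 0.0128, adjusted p = 0.311) and values of 0.33 and 0.36 without control 1 and control 2. Col15a1, its closest relative among the collagens, had a log2 fold change of 0.13 and overlapped. Col7a1, which anchors the basement membrane of stratified epithelium, read 85.2 and 79.4 against 79.4, 79.4 and 75.9, with a log2 fold change of -0.07. Over the 9 chains, 1 (11.1%) lay above both controls, a share near the 12.0% of all genes.

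The 8 cartilage chains lay close to zero, with a median log2 fold change of -0.02, and none separated the groups as deposited. Over all genes, 12.0% lay above both controls as deposited and 11.7% below. After median scaling and after quantile normalization, Col9a1, Col9a2, Col11a2 and Col27a1 lay below both controls, as did 42.6% and 22.4% of all genes. Each of these chains was tied between a control and a Pdx1cKO mouse before rescaling. Col2a1, the main fibrillar collagen of cartilage, read 98 and 87.7 in control mice and 97.1, 96.6 and 96.6 in Pdx1cKO, with a log2 fold change of 0.06 (95% confidence interval -0.10 to 0.22). Col11a1, a minor chain of the cartilage fibril, read 70.7 and 63.6 against 73.9, 70.7 and 70.7. The groups overlapped in both, and control 2 was the low array. Col9a2, a chain of the fibril-surface collagen IX, read 86.1 and 79.2 against 75, 79.2 and 79.2, and Col10a1, made by hypertrophic cartilage, read 47.7 and 39 against 41.8, 38.8 and 39. Their log2 fold changes were -0.09 and -0.12, and in Col10a1 the value without control 1 was 0.03. The remaining cartilage chains, Col9a1, Col9a3, Col11a2 and Col27a1, ranged from -0.03 to -0.01.

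The cartilage cell markers were dim in all arrays. The summed intensity of the 10 markers was 385 and 602 in control mice and 386 to 405 in Pdx1cKO, and Matn1 read 30.5 to 31.3, Matn3 26.3 and Acan 37.5 to 41.5, where the lowest probe set of an array read 18 to 18.3. Chad was the bright one, at 287.1 in control 2 and 63.9 to 88 elsewhere. The bone marker Sp7 read 26.4 to 27.8. No detection calls came with the values, so whether the cartilage chains lay above background at P1 is unknown.

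The largest log2 fold changes of the 44 chains, those of Col6a3, Col12a1 and Col26a1, were among the other chains. Type VI collagen is built mainly from Col6a1, Col6a2 and Col6a3, of which Col6a1 and Col6a2 are neighbours. Col6a1 read 1010 and 750.2 in control mice and 1024, 1030 and 1236 in Pdx1cKO, and Col6a2 read 1001 and 735.1 against 1001, 1001 and 1235. The 2 genes ran in parallel over the 5 mice, with control 2 low and Pdx1cKO 3 high, and had log2 fold changes of 0.33 and 0.32 (limma adjusted p = 0.515 for each), which were 0.11 and 0.10 without control 2. Col6a3, the largest of the type VI chains, read 342.5 and 450.4 against 549.3, 494.8 and 612.5. Its order in the controls was the opposite, control 1 being the lower, and the groups did not overlap. The log2 fold change of Col6a3 was 0.49 (95% confidence interval 0.00 to 0.97, limma unadjusted p = 0.0497, adjusted p = 0.483), with 0.29 without control 1 and 0.68 without control 2.

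Col6a4, Col6a5 and Col6a6 encode alternative chains related to Col6a3 and lie in a row in the gene table. Col6a6 read 157.5 and 138.2 in control mice and 182.7, 174.4 and 182.1 in Pdx1cKO, and Col6a5 read 77.4 and 64.1 against 86.6, 80.2 and 83.4. In the averages of both, every Pdx1cKO mouse lay above both controls, with log2 fold changes of 0.28 (limma unadjusted p = 0.0172, adjusted p = 0.342) and 0.24. The 2 probe sets of Col6a6 gave 0.19 and 0.38, and those of Col6a5 gave 0.32 and 0.17. Only the second probe set of Col6a6, at 120 and 116.6 against 154.9, 147.1 and 159.2, kept a wide gap between the groups, since the first read 206.7 in control 1 and in Pdx1cKO 2. The first probe set of Col6a5 overlapped between groups, at 76.5 and 54 against 88.7, 76.2 and 76.5. The second did not, at 78.3 and 76 against 84.5, 84.5 and 90.9. Col6a4 went the other way, at 54.4 and 62.5 against 54.4, 48.4 and 53.4, and overlapped (log2 fold change -0.17).

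Col26a1 had the smallest unadjusted p of all the chains. This gene encodes type XXVI collagen, known from testis and ovary, and read 108.4 and 98 in control mice and 145.8, 133.3 and 145.3 in Pdx1cKO. The groups were well apart, at a ratio of 1.37 and a log2 fold change of 0.46 ± 0.0703 (SE, limma unadjusted p = 0.00386, adjusted p = 0.236), and the value was 0.53 without control 1 and 0.38 without control 2. Col8a2, a network-forming collagen known from the cornea and vessels, read 85.6 and 82.1 against 104.2, 103.5 and 117.7. It lay above both controls in all Pdx1cKO mice, with a log2 fold change of 0.37 ± 0.0736 (SE, limma unadjusted p = 0.00917, adjusted p = 0.285), while its partner chain Col8a1 read 107.2 and 122.6 against 100.6, 119.6 and 124.4 (log2 fold change -0.00).

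Col12a1 and Col14a1 encode related collagens on the fibril surface and had opposite orders in the controls. Col12a1 read 208.4 and 331 in control mice and 359.8, 331.3 and 394.7 in Pdx1cKO, so that the groups touched at control 2 and its log2 fold change of 0.46 was 0.13 without control 1 and 0.79 without control 2. Col14a1 read 1345 and 757.9 against 1247, 1232 and 1318, so that control 1 was the highest array, and its 0.33 was 0.74 without control 1 and -0.09 without control 2. Col13a1, a membrane-spanning collagen of cell contacts, was the chain whose Pdx1cKO values all lay below the controls. It read 72.8 and 69.3 against 62.4, 65 and 65, a log2 fold change of -0.15 (95% confidence interval -0.25 to -0.05, limma unadjusted p = 0.0151, adjusted p = 0.324). The remaining other chains, Col16a1, Col17a1, Col19a1, Col20a1, Col22a1, Col23a1, Col25a1 and Col28a1, lay between -0.02 and 0.06, and Col28a1 read 43.9 in every array. The class median was 0.05, with 7 of 20 chains (35.0%) above both controls and 1 below. Over all genes the shares were 12.0% above and 11.7% below. The 7 include Col12a1 and Col6a1, whose lowest Pdx1cKO values were only just above the higher control (331.3 against 331 and 1024 against 1010).

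**Figure D3:**
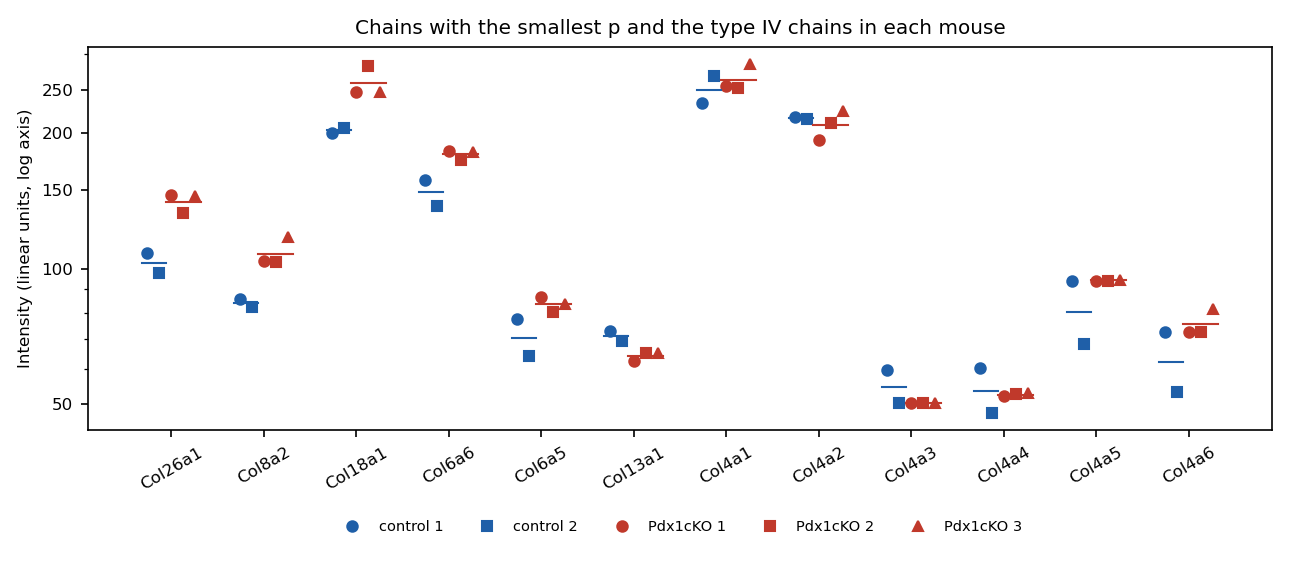
Intensity on a log axis (y) of the chains with the smallest p, of Col6a5 and of the 6 type IV chains (x) in each mouse, with a short line at each group's geometric mean. In Col26a1, Col8a2, Col18a1 and Col6a6 the Pdx1cKO mice lie above both controls, whereas in Col4a4 to Col4a6 the spread between the controls exceeds that between the groups.

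Calls appeared once a control was left out, and they differed with the control. Without control 1, limma called 8 chains higher (Col4a4, Col4a5, Col2a1, Col6a6, Col14a1, Col17a1, Col22a1 and Col23a1) and 0 lower, beside 8.04% of all genes higher and 8.94% lower. Without control 2 it called 3 lower (Col4a3, Col4a4 and Col23a1) and 1 higher (Col25a1), beside 10.4% lower and 4.99% higher. Col4a4 and Col23a1 were called in both, in opposite directions, and no chain was called in the same direction in both. With 1 control the fit takes its spread from the Pdx1cKO mice alone, and 29 of the 46 collagen probe sets held an exact tie between arrays, 6 of them identical in all 3 Pdx1cKO mice. Col4a3, Col17a1, Col22a1 and Col25a1, among those called, were of this kind, with log2 fold changes of -0.25, 0.03, 0.06 and 0.11 in the fit that called each.

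The genes that act on collagen were described from 6 lists of the pathway, and of their 83 measured genes none passed limma over all genes. At an unadjusted p under 0.05, 15 were higher and 2 lower, and 33 lay above both controls and 7 below, or 31 and 11 after median scaling. Over all genes the shares as deposited were 5.29% and 5.04% at that p and 12.0% and 11.7% for groups that do not overlap. For such groups they were 9.53% above and 42.6% below after median scaling, and 18.1% and 22.4% after quantile normalization. Each list count, here and below, is to be read beside the shares of its own setting. After median scaling and quantile normalization the list with the largest share above both controls was fibril partners (9 and 10 of 15). As deposited it was folding and modification. Of its 20 measured genes of 21, 7 were higher at an unadjusted p under 0.05 and 0 lower, 13 (65.0%) lay above both controls and 3 (15.0%) below (11 and 3 after median scaling), and the median log2 fold change was 0.25, or 0.26 without control 1 and 0.17 without control 2. P4ha1, the catalytic subunit of the prolyl hydroxylase that makes the triple helix stable, read 222 and 194.5 in control mice and 316, 321 and 344.9 in Pdx1cKO. Its log2 fold change was 0.65 ± 0.079 (SE, limma unadjusted p = 0.00165, adjusted p = 0.197), and it passed at 0.75 without control 1 but not at 0.56 without control 2. Serpinh1, the chaperone HSP47 that binds the collagen helix, read 293.6 and 314.5 against 424.6, 414 and 481 (log2 fold change 0.53, limma adjusted p = 0.239). P3h1, a prolyl hydroxylase of the same compartment, read 130.4 and 115.7 against 173, 155.2 and 155.2 (0.39, limma adjusted p = 0.308). In all 3 the gap between the groups was wider than the spread of either group.

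Outside the cell, Lox, which crosslinks collagen and elastin, read 824.5 and 670.5 in control mice and 1141, 1037 and 1214 in Pdx1cKO, a log2 fold change of 0.60 (limma adjusted p = 0.298). Its list, procollagen cleavage and crosslinking, had a median of 0.12 over 12 of 14 genes, which was 0.45 without control 1 and -0.06 without control 2, with 4 genes above both controls and 0 below (2 below after median scaling), among them the crosslinking peroxidase Pxdn (0.42) and the procollagen protease Adamts3 (0.38). Lum, a leucine-rich proteoglycan that coats fibrils, read 588.8 and 586.3 against 900.6, 818.8 and 1043, with nearly equal controls and a log2 fold change of 0.64 ± 0.119 (SE, limma unadjusted p = 0.00721, adjusted p = 0.271). The fibril partners, 15 of 16 measured, had a median of 0.32 (0.48 and 0.25 without control 1 and control 2), with 9 (60.0%) above both controls and 0 below. Fbn2, a microfibril protein, and Postn, which helps recruit crosslinking enzymes, had log2 fold changes of 0.55 and 0.26.

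Of 14 measured basement membrane partners of 15, 0 lay above both controls, and 2 (14.3%) lay below, a share near the 11.7% of all genes. Both were at an unadjusted p under 0.05, and the list median of 0.12 was -0.03 without control 2. Lama5, the laminin chain of mature epithelial and vessel basement membranes, read 257.9 and 221.3 in control mice and 184.1, 193.8 and 207.6 in Pdx1cKO (log2 fold change -0.29, limma adjusted p = 0.448). Lamb3, a chain of the epithelial laminin 332, read 105.2 and 211.7 against 76.9, 70.9 and 74. The control value was high in control 2, the array with stomach transcripts, and the log2 fold change of -1.01 (limma adjusted p = 0.469) was -1.52 without control 1 and -0.51 without control 2, past the limma threshold in each of those fits. Lama2, the laminin chain of mesenchyme and muscle, overlapped at 0.29.

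Of the 10 measured collagen receptors of 11, 1 lay above both controls and 2 below, none at an unadjusted p under 0.05, and the median was 0.09. After median scaling 1 lay above and 3 below, and after quantile normalization 3 above and 2 below. Ddr1, the epithelial collagen receptor kinase, read 476.9 and 417.3 in control mice and 350.3, 390.7 and 386.5 in Pdx1cKO (log2 fold change -0.25). Mrc2, by which mesenchymal cells take up collagen, was at 0.56 and Adgrg1, an adhesion receptor for type III collagen, at -0.39. Of the 12 measured degradation genes of 13, 6 lay above both controls and 0 below, 3 of them at an unadjusted p under 0.05, and the median of 0.25 was 0.51 without control 1 and 0.11 without control 2. Mmp8, the collagenase of neutrophils, read 28 and 25.1 against 136.1, 103.1 and 64.5 (log2 fold change 1.87, limma adjusted p = 0.284), and Mmp9, a gelatinase also made by neutrophils, was at 0.83, with 1.19 and 0.48 without control 1 and control 2, past the threshold in each of those fits. The 8 granulocyte markers lay above both controls in all 3 Pdx1cKO mice as well, and their part in the Mmp8 and Mmp9 values was not tested. Timp3, a matrix-bound inhibitor of such proteases, was at 0.51.

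**Figure D4:**
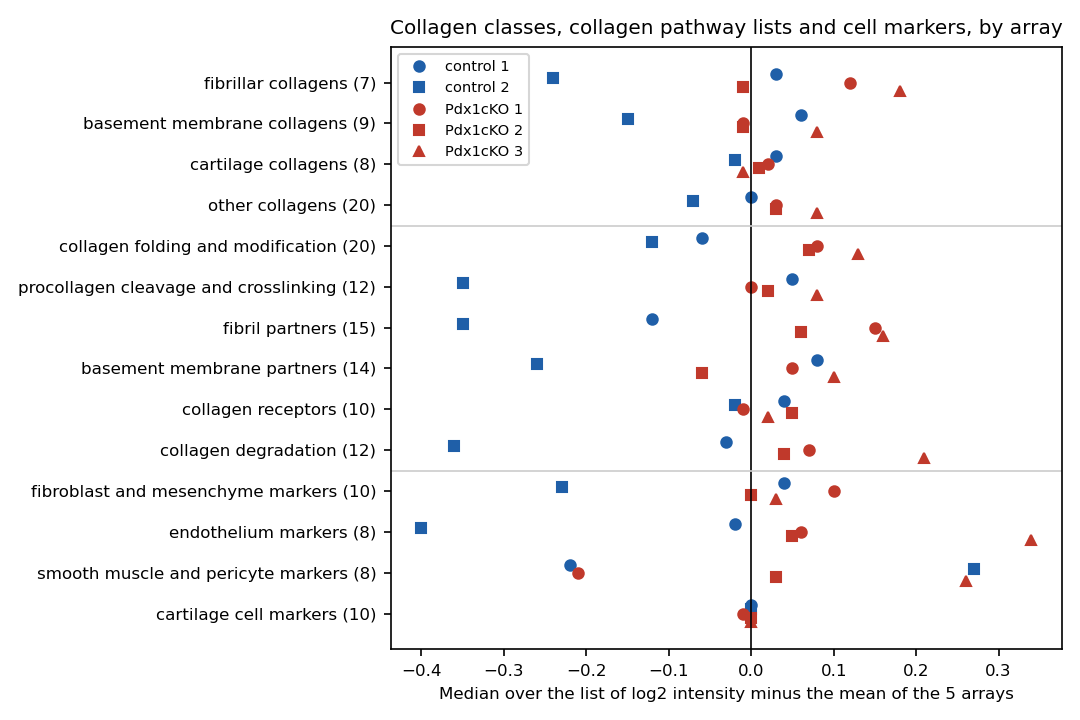
Median over each list (y, with the number of measured genes) of log2 intensity minus the gene's mean over the 5 arrays (x), 1 symbol per mouse. For the fibrillar chains control 2 lies at -0.24 and control 1 at 0.03, in the range of the Pdx1cKO mice (-0.01 to 0.18). For collagen folding and modification both controls lie below all 3 Pdx1cKO mice, and the cartilage chains stay within -0.02 to 0.03.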

How the data were processed

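Total RNA of 5 P1 pancreata (2 control, 3 Pdx1cKO) was hybridised to Mouse Gene 1.0 ST arrays, 1 per mouse. The authors analysed the arrays with GeneSpring GX 12.1, and the deposited intensity values are linear and already normalized between arrays (medians 61 to 61.9) by a method not given in the sources used here. They hold no detection calls, and 67.7% of probe sets contain an exact tie between arrays. Arrays have no read depth, so precision is set by how many mice there were. Nothing says whether mice shared a litter, so p-values measure only the spread between these samples.

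Samples were grouped by their genotype label. Probe sets with 1 symbol (21789 of 28853; 1621 have several and 5443 are unnamed here) were named from the platform annotation and checked against RefSeq GRCm38.p6, where 21698 matched by Entrez gene and 0 symbols changed. Log2 intensities, with no pseudocount or filter, were averaged per gene (19938 genes) and fitted in R 4.3.3 with limma 3.58.1 (lmFit, eBayes, Benjamini-Hochberg over all genes, threshold 0.05). Limma was used for every p and confidence interval (95%). The fit was tested on simulated data with independent normal noise. That setting differs from the tied values here, so it does not show how well the p-values are calibrated on them. With 2 against 3 mice an exact one-sided permutation test cannot go below 0.1, so none is given. Promoter windows came from RefSeq. Tables were handled in Python 3.11.15 with pandas 2.3.3.

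Values in every mouse are given for Col1a1, Col1a2, Col3a1, Col6a1 to Col6a3, Col2a1, the type IV chains and the 4 chains with the smallest p in each class. From each pathway list the 3 genes with the smallest p are named. Col6a4, Col6a5, Col8a1, Col12a1, Col14a1 and the named marker genes were chosen after their values were seen. The members, classes and lists were chosen with earlier results of these data known. The alternatives were median scaling, quantile normalization, genes above the median level, every or the brightest probe set, trend and robust eBayes, the methods' t-test (Student), a replicate block, and each mouse left out in turn.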

Additional observations from a re-analysis of the deposited data

How the results depend on the processing

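No collagen chain passed over all genes under median scaling, quantile normalization, the filter to genes above the median level (28 chains of 9969 genes), either probe set setting, trend and robust eBayes, the methods' t-test after adjustment, the replicate block, or without any 1 Pdx1cKO mouse. Only leaving out a control gave calls: over the 5 fits without 1 mouse, 0 to 8 chains were called higher and 0 to 3 lower. Chains at an unadjusted p under 0.05 were 3 (without Pdx1cKO 1) to 16 (without control 1) higher and 1 to 5 (without control 2) lower over those fits, and chains whose groups do not overlap were 10 to 27 (without control 1) higher and 1 to 13 (without control 2) lower. For the unadjusted p and non-overlap counts in the fits without 1 mouse, no share of all genes was computed. Non-overlap is reached more easily against 1 control than against 2. The non-overlap counts without a control therefore cannot be read beside the all-gene shares from all 5 arrays. Chains wholly below the controls were 9 under median scaling, with 7 above, and 7 under quantile normalization, with 9 above, against 1 and 10 as deposited. All 8 and all 6 chains added below were tied between a control and a Pdx1cKO mouse before rescaling. Among genes above the median level 0 lay below. At an unadjusted p under 0.05, 0 chains were lower among genes above the median level and 0 with the replicate block, against 1. The methods' t-test gave 4 higher and 1 lower at its unadjusted threshold. For the counts among genes above the median level, with the replicate block and with the t-test, no share of all genes was computed either.

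The median log2 fold change over the chains was 0.24 among genes above the median level, a filter that kept 28 of the 44. Over all 44 chains it was 0.00 to 0.11 without 1 mouse. For the other chains it was 0.32 above the median level, 0.11 with every probe set and 0.05 to 0.11 without 1 mouse, for the fibrillar chains 0.02 to 0.31 without 1 mouse, and for the cartilage chains -0.04 under median scaling. Single genes that changed sign without 1 mouse were Col3a1 (-0.10 to 0.64), Col14a1 (-0.09 to 0.74), Col2a1 (-0.02 to 0.14), Col4a1 (-0.03 to 0.18), Col4a2 (-0.10 to 0.01), Col4a4 (-0.19 to 0.14) and Col10a1 (-0.26 to 0.03). Col4a3 was at 0.00 without control 1 and Col4a5 at 0.00 without control 2. The other 36 of the 45 genes with alternatives kept their sign. The 45 include every chain whose groups do not overlap, and the pathway genes with the smallest p. Where groups do not overlap, leaving out 1 mouse cannot change the sign, so the count of 36 does not measure stability. The cause of these shifts was not tested.

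Deviations from the group mean had correlations of 0.0325 and -0.00297 between mice with the same replicate number. The deviations of the controls mirror each other, so these values cannot decide whether the numbers pair the samples. The replicate block left 5 chains higher at an unadjusted p under 0.05, a count with no all-gene share beside it. With dim genes, ties and no detection calls, values near the lowest intensity of 18 have no known distance from background.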
